A study of Mus musculus with 12 samples.

Results

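Imprinted growth genes are genes that a mammalian cell reads mainly from the copy inherited from one parent, and that act on growth before and around birth. The 10 described here were taken as a named list, Mest, H19, Igf2, Dlk1, Meg3, Rian, Peg3, Plagl1, Cdkn1c and Grb10, and matched by symbol. All 10 were found among the 16335 genes measured. The list was chosen by their log2 CPM levels over the treatment groups and their covariation between tumors, as seen in earlier results of these data, so the differences and correlations of these genes are given as descriptions, and no test of them is used as support.

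RNA came from 12 tumors of BVMA01R, a single mouse sarcoma line of genotype Myf5-Cre;p53-/-;Ass1-/-, in female C57BL/6J mice. Every group shared the line and its genotype, in which Cre is driven by the muscle progenitor gene Myf5. The 4 groups of 3 libraries were untreated tumors, tumors treated with chloroquine, tumors treated with ADI-PEG20, and tumors treated with ADI-PEG20 and chloroquine together (below, both drugs). ADI-PEG20 is arginine deiminase coupled to polyethylene glycol, which removes arginine from the blood, and chloroquine raises lysosomal pH and blocks late autophagy. The comparisons address what each drug, and the pair, change in a sarcoma that cannot make its own arginine. Doses, schedules and ages are not given in the sources used here. Nothing in the labels states that the libraries came from separate animals, so the spread given below is the spread between these samples alone.

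Levels are CPM, reads of a gene scaled to library size, from ribosomal RNA-depleted total RNA, deposited as log2 CPM. The libraries held 15501998 to 28410940 reads in the table. One library stood apart: ADI-PEG20 library 1 had 120 genes at 0 reads, against 7 to 43 in the other libraries. Ass1 gave 153 to 397 reads per library and Trp53 gave 326 to 756, which counts per gene cannot assign to deleted, truncated or host copies. The muscle lineage genes Myf5 (12.3 to 54.4 CPM) and Des (62.0 to 403 CPM) were present in every library, while Myod1 ran from 0.779 to 38.8 CPM and Myog from 0.499 to 42.3 CPM. In bulk tumor RNA, fewer cells of a type and less RNA per cell cannot be told apart. Neither can the maternal and paternal copies of an imprinted gene, since reads were counted per gene.

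As background, imprinting rests on DNA methylation laid down in the egg or the sperm at imprinting control regions, which the zinc finger protein ZFP57 helps to keep after fertilization. Mest, Igf2, Dlk1, Peg3 and Plagl1 are read from the paternal copy, and H19, Meg3, Rian and Cdkn1c from the maternal copy. Grb10 is maternal in most tissues and paternal in neurons. Igf2 and H19 share enhancers and 1 control region on chromosome 7, and Dlk1, Meg3 and Rian lie in 1 domain on chromosome 12. Several of these genes are high in embryonic muscle and fall after birth, and PLAGL1 is a zinc finger transcription factor that acts on other imprinted genes.

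Sequences are shown for 2 properties of the list: the microRNAs made from the host transcripts, and the letters in the promoter windows that imprinting factors recognise. The windows and microRNAs were taken from RefSeq on GRCm38.p6. In 5 of the 10 genes, 7 microRNA hairpins lie on the same strand within the gene: 1 each in Mest, H19, Igf2 and Meg3, and 3 in Rian. These hairpins give 14 mature products, and Meg3 holds a further one, mmu-miR-1906, listed with no hairpin. The 15 products have 15 distinct seeds, so no seed is shared within the list. The mature products were not measured here. These are 1 product of each of 5 hairpins, written 5′ to 3′, with bases 2 to 8, the seed, in capitals.
mmu-miR-335-5p (within Mest, chr6:30741314-30741336, plus strand): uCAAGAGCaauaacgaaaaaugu
mmu-miR-675-5p (within H19, chr7:142577112-142577133, minus strand): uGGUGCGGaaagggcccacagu
mmu-miR-483-5p (within Igf2, chr7:142654968-142654989, minus strand): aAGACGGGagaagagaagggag
mmu-miR-770-5p (within Meg3, chr12:109563710-109563731, plus strand): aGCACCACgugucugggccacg
mmu-miR-370-3p (within Rian, chr12:109618305-109618326, plus strand): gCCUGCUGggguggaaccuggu

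Promoter windows of 250 bases before the start were available for 8 of the 10 genes, with 15 start sites. H19 and Cdkn1c had no entry. The windows were searched on both strands for TGCCGC, the ZFP57 motif, and for GGGGCCCC, the PLAGL1 motif, which reads the same on both strands. TGCCGC was found in windows of 3 genes, Mest, Meg3 and Plagl1. These are 4 of the 15 windows, or 3 of 14 when a pair of Mest windows shifted by 3 bases, which hold the same matches, is counted once. It was found in 8.68% of 32851 mouse promoter windows of the same length. GGGGCCCC was found in 1 window, that of Peg3, and in 0.889% of all windows. The downstream start of Mest and the windows of Meg3, Plagl1 and Peg3 are shown because they hold these letters. Capitals mark the motif, and in the Mest, Meg3 and Plagl1 windows TGCCGC is on the other strand and therefore reads GCGGCA.
Mest, downstream start (chr6:30737800-30738049, plus strand): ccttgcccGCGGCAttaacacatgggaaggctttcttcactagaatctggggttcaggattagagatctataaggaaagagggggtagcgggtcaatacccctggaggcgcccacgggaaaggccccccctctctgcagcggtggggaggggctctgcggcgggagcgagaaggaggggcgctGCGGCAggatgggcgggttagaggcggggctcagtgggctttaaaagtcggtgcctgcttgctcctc
Meg3, upstream start (chr12:109540746-109540995, plus strand): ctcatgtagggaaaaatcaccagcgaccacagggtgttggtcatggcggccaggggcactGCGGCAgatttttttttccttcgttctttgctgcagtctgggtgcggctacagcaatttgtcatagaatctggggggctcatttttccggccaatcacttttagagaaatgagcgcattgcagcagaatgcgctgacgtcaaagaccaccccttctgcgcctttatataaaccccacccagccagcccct
Plagl1 (chr10:13090582-13090831, plus strand): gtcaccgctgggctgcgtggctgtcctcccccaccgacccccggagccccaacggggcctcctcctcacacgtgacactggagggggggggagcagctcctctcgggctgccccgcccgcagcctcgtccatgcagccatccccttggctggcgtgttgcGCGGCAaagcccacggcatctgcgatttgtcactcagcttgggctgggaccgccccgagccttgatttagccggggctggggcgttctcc
Peg3 (chr7:6730420-6730669, minus strand): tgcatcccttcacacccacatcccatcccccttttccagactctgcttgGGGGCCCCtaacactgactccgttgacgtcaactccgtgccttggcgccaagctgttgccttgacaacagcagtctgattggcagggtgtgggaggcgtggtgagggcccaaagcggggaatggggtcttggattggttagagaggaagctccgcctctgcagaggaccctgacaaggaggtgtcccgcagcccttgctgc
A match is a description of letters and not of binding. The CpG count, a mark of windows that can carry dense methylation, ran from 0 in the windows of Rian and of the downstream start of Meg3 to 40 at the upstream start of Grb10, against a median of 6 and an upper quartile of 16 over all windows. Of the windows shown, that of Mest held 14 CpG, Plagl1 19, Meg3 10 and Peg3 8.

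Within the list the genes covered a wide span of levels. On the scale of CPM per kilobase of merged exon, averaged over 12 libraries, the growth factor Igf2 led at 618. The receptor adaptor Grb10 followed at 53.8, then Peg3 at 24.3, H19 at 20.9 and Mest at 20.4. Meg3 (4.79), Rian (2.07), the cell cycle inhibitor Cdkn1c (1.18), Plagl1 (0.653) and Dlk1 (0.414) were lower. Cdkn1c, Plagl1 and Dlk1 rested on few reads, 12 to 103, 5 to 315 and 25 to 70 per library, so their values carry more counting error than those of the other 7.

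Chloroquine was compared with no treatment first. Mest was the member whose chloroquine libraries stood clear of the untreated ones. It encodes a hydrolase-fold protein of the endoplasmic reticulum and is a standard marker of mesoderm (ENSMUSG00000051855, chromosome 6, 30723547 to 30748465, plus strand, GRCm38, as for all gene positions below). Mest measured 54.3, 46.7 and 86.6 CPM in untreated libraries 1 to 3 and 182, 121 and 99.0 CPM with chloroquine. It measured 84.1, 52.2 and 68.7 CPM with ADI-PEG20 and 50.6, 56.1 and 64.3 CPM with both drugs. The 3 chloroquine libraries were the highest 3 of the 12, and the other 3 groups overlapped each other. The group means were 134 ± 43.1 CPM with chloroquine (SD, n = 3), 68.3 ± 16.0 with ADI-PEG20, 62.5 ± 21.2 untreated and 57.0 ± 6.89 with both drugs. On the log2 scale chloroquine exceeded untreated tumors by 1.10 (SE 0.26), a 2.15-fold difference. Mest was the 1 gene of the 10 whose chloroquine and untreated libraries did not overlap with chloroquine higher, a pattern found in 3.69% of all genes.

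Igf2, the ligand of the IGF1 receptor (ENSMUSG00000048583, chromosome 7, 142650766 to 142666816, minus strand), had a wider spread than Mest. Its values were 1547, 2060 and 4505 CPM untreated and 8175, 3969 and 4114 CPM with chloroquine. With ADI-PEG20 they were 3647, 3082 and 2834 CPM, and with both drugs 2791, 2584 and 3118 CPM. Chloroquine library 1 was the highest of the 12, while untreated library 3 lay above the other 2 chloroquine libraries, so these groups overlapped. Chloroquine exceeded untreated tumors by 1.07 (SE 0.36) on the log2 scale. The group means in descending order were 5419 ± 2388 CPM with chloroquine, 3188 ± 416 with ADI-PEG20, 2831 ± 270 with both drugs and 2704 ± 1581 untreated (SD, n = 3). The last 3 overlapped each other.

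H19, the maternal noncoding RNA downstream of Igf2 (ENSMUSG00000000031, chromosome 7, 142575529 to 142578143, minus strand), measured 50.1, 10.2 and 63.7 CPM untreated. It measured 121, 96.7 and 56.4 CPM with chloroquine, 99.0, 15.3 and 29.3 CPM with ADI-PEG20, and 20.13, 8.03 and 48.6 CPM with both drugs. All 4 groups overlapped with at least 1 other group, and the highest value over the 12 was 15.01 times the lowest. Chloroquine exceeded untreated tumors by 1.44 on the log2 scale with an SE of 0.78, and the groups overlapped. Without untreated library 2 that difference was 0.62.

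The chloroquine and untreated libraries of the other 7 members overlapped. Grb10, an adaptor that restrains signalling from the insulin and IGF1 receptors (ENSMUSG00000020176, chromosome 11, 11930508 to 12038683, minus strand), measured 378, 259 and 519 CPM untreated and 558, 568 and 463 CPM with chloroquine, a log2 difference of 0.51 (SE 0.22). With ADI-PEG20 it measured 451, 500 and 517 CPM and with both drugs 484, 668 and 504 CPM, so that its lowest 2 values were untreated libraries. Plagl1 (ENSMUSG00000019817, chromosome 10, 13060504 to 13131694, plus strand) measured 4.93, 2.12 and 4.62 CPM untreated and 16.8, 14.2 and 1.93 CPM with chloroquine. Chloroquine libraries 1 and 2 of Plagl1 lay above all untreated libraries and library 3 below them, and its log2 difference was 1.09 (SE 1.17). The log2 differences were 0.47 (SE 0.54) for Dlk1, a Notch-like membrane protein that restrains adipocyte differentiation (ENSMUSG00000040856, chromosome 12, 109452823 to 109463336, plus strand), 0.27 (SE 0.34) for Rian and 0.16 (SE 0.48) for Meg3. Dlk1 stayed between 0.815 and 3.61 CPM in all 12 libraries. The differences were 0.11 (SE 0.30) for Peg3 and 0.06 (SE 0.80) for Cdkn1c. The difference was above 0 in 10 of 10 genes, with a median of 0.49, against 49.3% above 0 and a median of -0.0044 over all genes. With 1 library left out at a time, 8 to 10 were above 0. In 3 of the 10 the unadjusted p was under 0.05, against 3.4% of all genes, and none of the 10 passed after Benjamini-Hochberg adjustment over all genes in limma, where 0% of all genes passed.

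**Figure D1:**
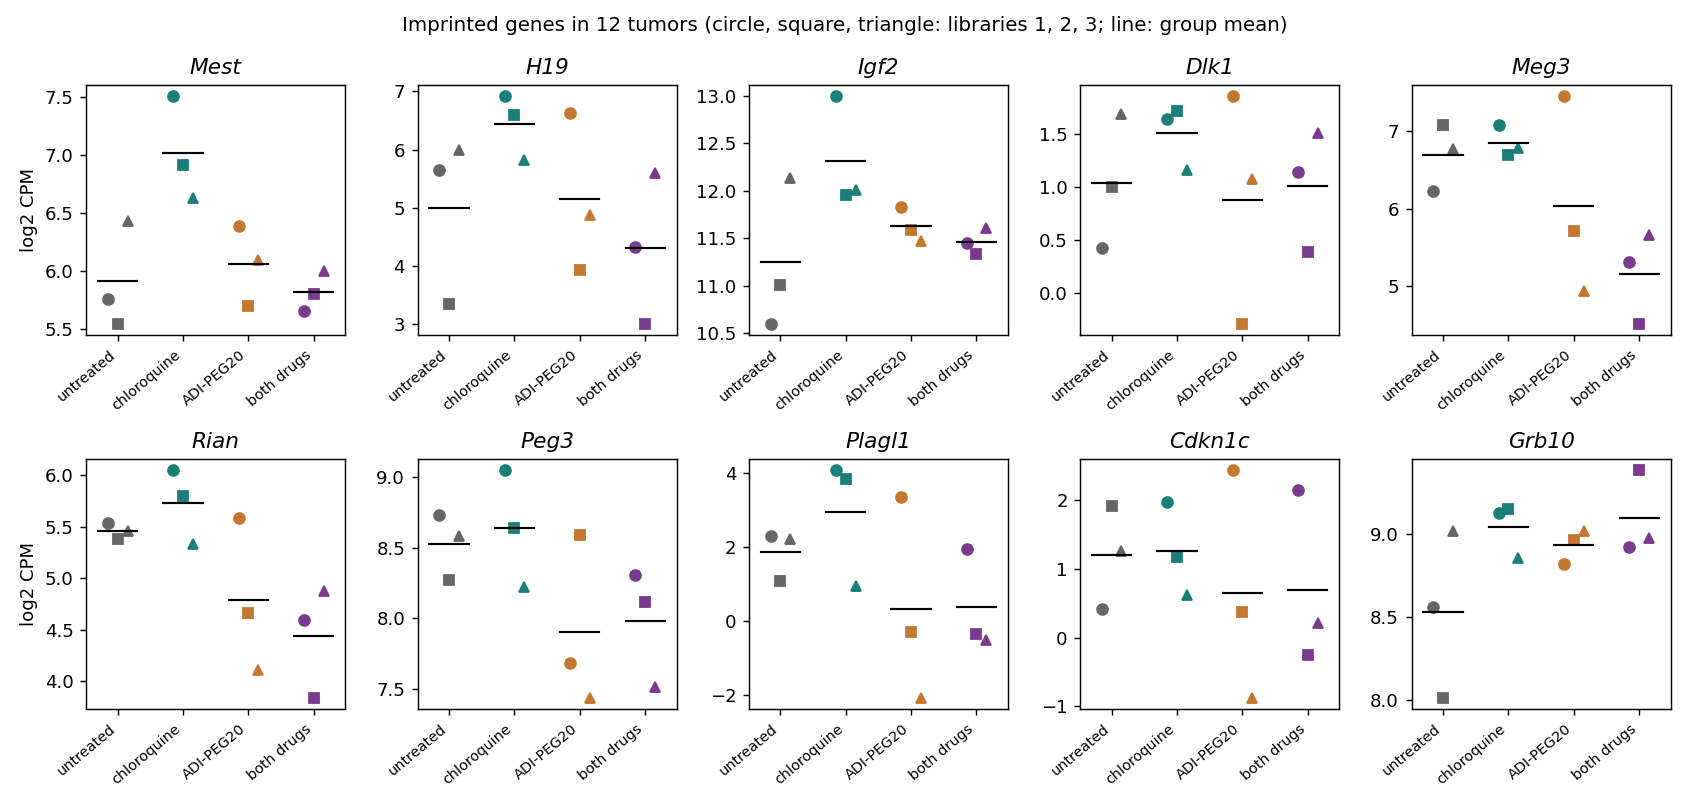
Level of each imprinted gene (log2 CPM, vertical axis, own scale per panel) in the 12 tumors by treatment group, with circle, square and triangle for libraries 1, 2 and 3 and a line at the group mean. The 3 chloroquine libraries lead in Mest (99.0 to 182 CPM), and the 3 libraries with both drugs lie below all untreated and chloroquine libraries in Meg3 (22.8 to 50.6 CPM) and Rian (14.3 to 29.3 CPM).

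Both drugs were then compared with no treatment, where the noncoding RNAs Meg3 and Rian of chromosome 12 were the members whose libraries did not overlap. Meg3, a maternal long noncoding RNA (ENSMUSG00000021268, chromosome 12, 109541001 to 109571726, plus strand), measured 75.1, 135 and 109 CPM untreated and 136, 104 and 110 CPM with chloroquine. It measured 175, 52.6 and 30.8 CPM with ADI-PEG20 and 39.6, 22.8 and 50.6 CPM with both drugs. All 3 libraries with both drugs lay below all untreated and all chloroquine libraries. The ADI-PEG20 group held the highest library of the 12, library 1, and the second lowest, library 3. Both drugs stood below untreated tumors, the log2 difference being -1.53 (SE 0.48), and below chloroquine with a difference of -1.69 (SE 0.48).

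Rian, the noncoding RNA that hosts the small nucleolar RNAs of the same domain (ENSMUSG00000097451, chromosome 12, 109603940 to 109661716, plus strand), measured 46.6, 41.8 and 44.0 CPM untreated and 66.3, 55.7 and 40.5 CPM with chloroquine. It measured 48.1, 25.3 and 17.3 CPM with ADI-PEG20 and 24.2, 14.3 and 29.3 CPM with both drugs. The order of its group means was chloroquine (54.2 ± 13.01 CPM), untreated (44.1 ± 2.37), ADI-PEG20 (30.2 ± 16.0) and both drugs (22.6 ± 7.62; SD, n = 3), and each neighbouring pair in that order overlapped. The log2 difference between both drugs and untreated tumors was -1.03 (SE 0.34), and between both drugs and chloroquine -1.29 (SE 0.34). Meg3 and Rian were the 2 of the 10 genes whose libraries with both drugs all lay below the untreated ones, a pattern found in 7.92% of all genes. Against untreated tumors, both drugs stood higher for 2 of the 10 genes, Grb10 (0.56, SE 0.22) and Igf2 (0.22, SE 0.36), and lower for 8, with a median of -0.52 against 0.0054 over all genes. Plagl1 differed by -1.49 (SE 1.17), with libraries that overlapped. The count of higher genes ran from 1 (without untreated library 1, where Igf2 was at -0.11) to 4 (without untreated library 3, where Mest was at 0.17 and Dlk1 at 0.30) when 1 library was left out. With total reads as library size it was also 4, through the same pair, Mest and Dlk1. In 3 of the 10, Meg3, Rian and Grb10, the unadjusted p was under 0.05, against 8.65% of all genes, and none passed after adjustment.

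The comparison of both drugs with chloroquine alone, which asks what ADI-PEG20 did in the presence of chloroquine, held the most members apart. In 5 of the 10 genes, Mest, H19, Igf2, Meg3 and Rian, the 3 libraries with both drugs all lay below the 3 with chloroquine, a pattern found in 9.57% of all genes. The log2 differences were -1.19 (SE 0.26) for Mest, -2.13 (SE 0.78) for H19 and -0.86 (SE 0.36) for Igf2. Plagl1, at 3.87, 0.792 and 0.705 CPM with both drugs, differed by -2.58, with an SE of 1.17 and libraries that overlapped, and Peg3 by -0.66 (SE 0.30). Differences for Cdkn1c (-0.56, SE 0.80) and Dlk1 (-0.49, SE 0.54) were smaller than or close to their SE, and Grb10 stood at 0.05 (SE 0.22). The median over the 10 was -1.02, against 0.0098 over all genes, and 7 of the 10 had an unadjusted p under 0.05, against 6.78% of all genes. With all 12 libraries in the fit, none of the 10 passed after adjustment in limma, where 0% of all genes passed. In a fit of these 2 groups alone, which called 72 of 16335 genes, Meg3 passed (limma adjusted p = 0.034) and Mest did not (limma adjusted p = 0.051). Meg3 was the 1 member called under any of the alternative settings. The comparison shares its chloroquine libraries with that of chloroquine and untreated tumors, so a high chloroquine value enters both.

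ADI-PEG20 alone left every member overlapping with untreated tumors. It stood higher for 4 of the 10 genes (2 without ADI-PEG20 library 1) and lower for 6, with a median difference of -0.35 on the log2 scale, and the 0 members that did not overlap compare with 10.1% of all genes. Peg3, a paternal zinc finger gene (ENSMUSG00000002265, chromosome 7, 6703892 to 6730431, minus strand), measured 425, 309 and 383 CPM untreated and 205, 385 and 173 CPM with ADI-PEG20, a log2 difference of -0.63 (SE 0.30). ADI-PEG20 library 2 lay within the untreated range of Peg3 and libraries 1 and 3 below it. Cdkn1c, the maternal inhibitor p57 (ENSMUSG00000037664, chromosome 7, 143458339 to 143461050, minus strand), measured 1.34, 3.78 and 2.39 CPM untreated and 5.44, 1.29 and 0.544 CPM with ADI-PEG20. ADI-PEG20 library 1, which stood apart in its number of genes at 0, was the highest of its group for 8 of the 10 genes, the exceptions being Peg3 and Grb10. Without it the log2 difference of ADI-PEG20 from untreated tumors was -1.36 in place of -0.66 for Meg3, -1.08 in place of -0.68 for Rian and -0.59 in place of 0.15 for H19. Plagl1, at 10.2, 0.815 and 0.239 CPM with ADI-PEG20, moved from -1.53 to -3.04.

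**Figure D2:**
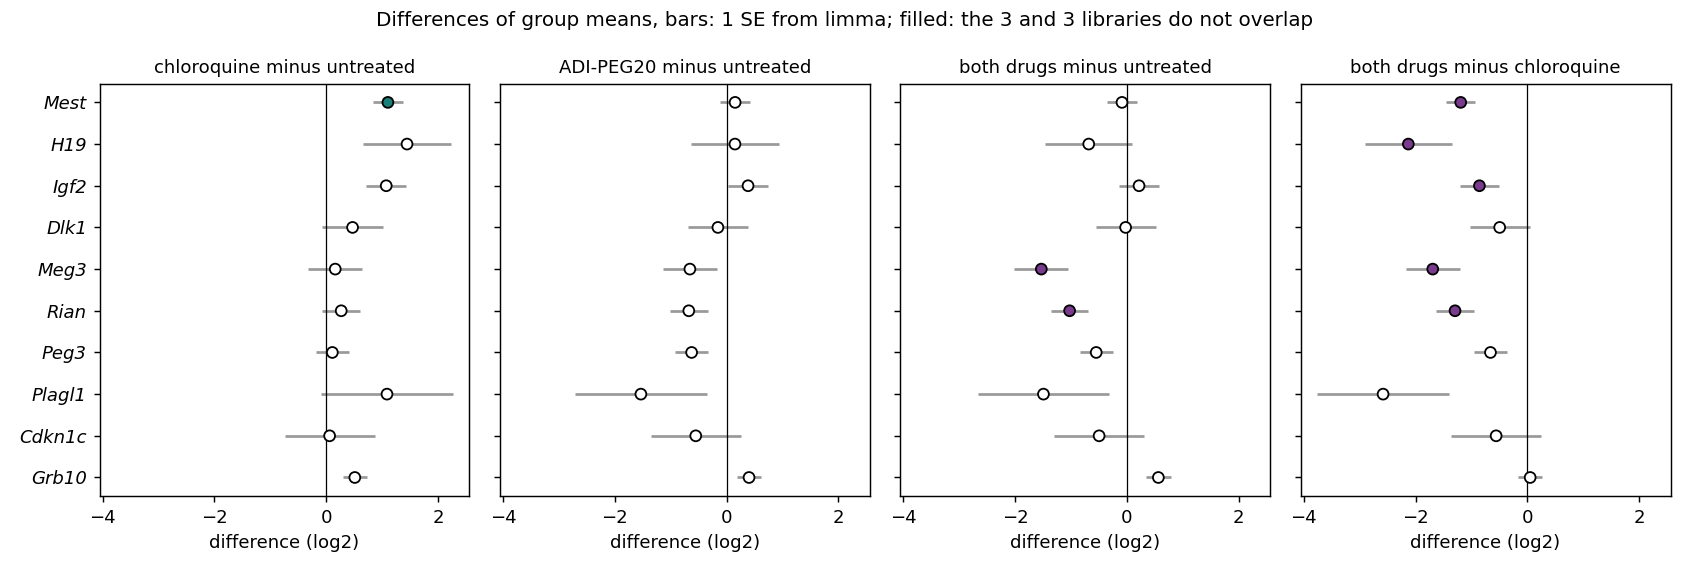
Difference of group means on the log2 scale (horizontal axis) for the 10 imprinted genes in 4 comparisons, with bars of 1 SE from limma, and filled points where the 3 and 3 libraries do not overlap. Mest is the filled gene for chloroquine against untreated tumors (1.10), and 5 genes are filled for both drugs against chloroquine.

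The interaction, which subtracts the ADI-PEG20 effect seen without chloroquine from the one seen with it, was below 0 for 10 of 10 genes, against 50.4% above 0 over all genes. Without ADI-PEG20 library 1, 3 of the 10 were above 0, Cdkn1c (0.89), Plagl1 (0.46) and Dlk1 (0.15). With total reads as library size 2 were, Peg3 (0.08) and Cdkn1c (0.11). The values were -1.34 (SE 0.37) for Mest, -1.24 (SE 0.50) for Igf2 and -2.28 (SE 1.10) for H19 on the log2 scale. They were -0.03 (SE 0.42) for Peg3 and -0.01 (SE 1.14) for Cdkn1c. In 2 of the 10, Mest and Igf2, the unadjusted p was under 0.05, against 4.26% of all genes, and none passed after adjustment. Chloroquine and untreated libraries enter this value with opposite signs to those in their own comparison, so it adds no separate evidence on chloroquine. Both drugs against ADI-PEG20 alone stood higher for 5 genes and lower for 5, with 0 of 10 not overlapping against 9.16% of all genes.

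Across the 12 tumors the members followed each other in part. Of the 45 pairs, 39 had a Pearson r above 0 over the 12 log2 CPM values, with a median of 0.51, and 4 reached 0.8. Of the deviations from group means, which remove the treatment averages, 38 pairs were above 0, with a median of 0.42. These values share their libraries and are descriptions of 12 samples. The 4 closest pairs were Meg3 and Rian (r = 0.92, rho = 0.83), Mest and Igf2 (r = 0.88, rho = 0.86), Rian and Plagl1 (r = 0.84, rho = 0.89), and Mest and H19 (r = 0.80, rho = 0.83). For deviations from group means, r for these 4 pairs was 0.87, 0.82, 0.80 and 0.72. Without the 2 libraries farthest from the median, r was 0.83, 0.77, 0.79 and 0.76. Without ADI-PEG20 library 1 it was 0.94, 0.88, 0.84 and 0.82.

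Mest and Igf2 lie on different chromosomes. Igf2 was the gene with the second highest r to Mest among 16333 others, and Mest the seventh highest to Igf2 by the same measure. H19 and Igf2, which share a control region, had r = 0.61, and r = 0.42 for deviations. Grb10 had r = -0.44 with Meg3 and -0.31 with Rian, which became -0.21 and 0.04 without the 2 libraries farthest from the median, and r = 0.08 with Dlk1. Peg3 stood against Dlk1 for deviations from group means (r = -0.51). Spread between tumors was also uneven: the SD over 12 libraries exceeded that of 99.0% of all genes for Plagl1, 96.3% for H19, 93.3% for Cdkn1c and 91.4% for Meg3, and that of 50.0% for Grb10.

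**Figure D3:**
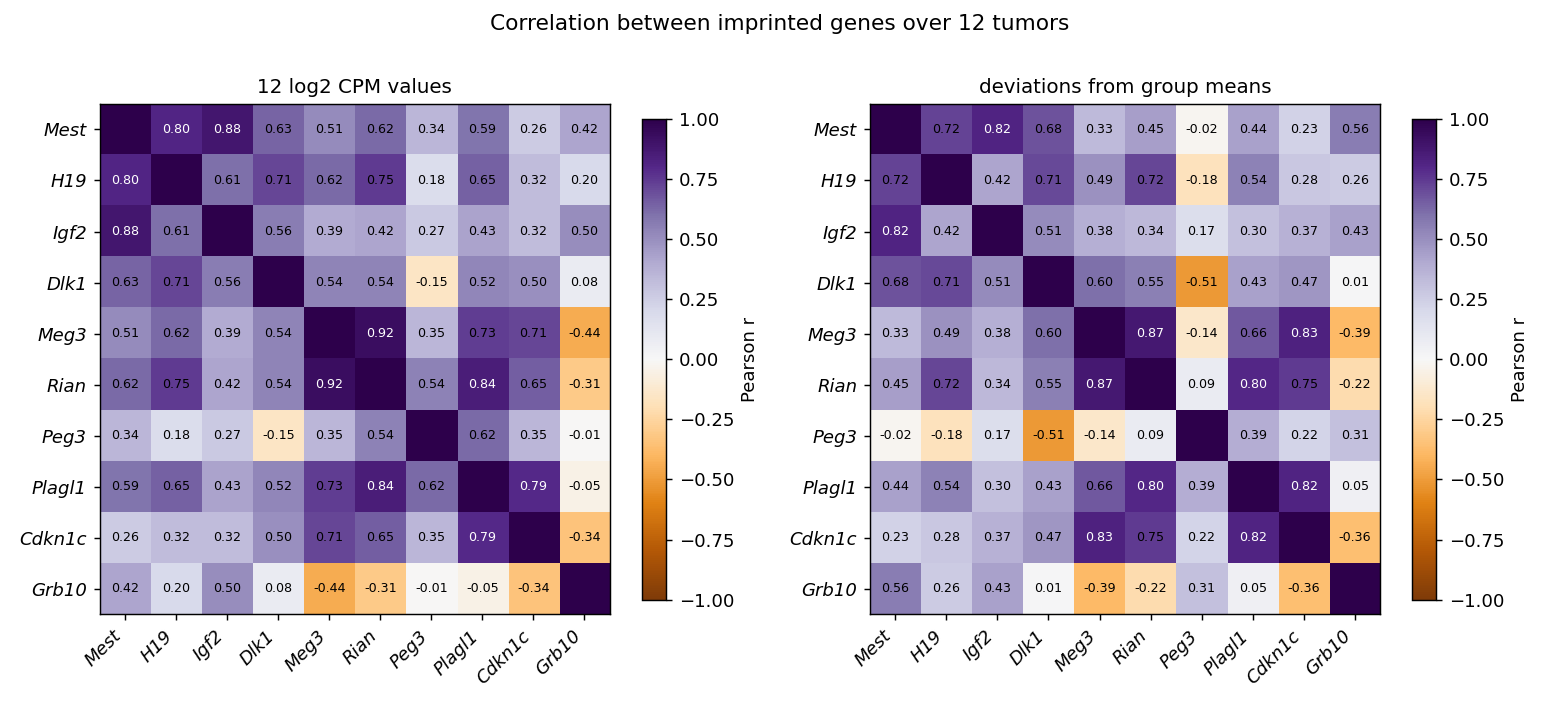
Pearson r between the imprinted genes over 12 tumors, for log2 CPM values (left) and for deviations from group means (right), on a scale from -1 to 1. Meg3 with Rian and Mest with Igf2 show the 2 highest values on the left (0.92 and 0.88), and Grb10 is below 0 with Meg3 (-0.44) on the left.

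The chromosome 12 domain was followed gene by gene. Rtl1, a retrotransposon-derived paternal gene on the opposite strand to Meg3 and Rian, measured 4.34, 10.9 and 10.3 CPM untreated, 15.4, 7.57 and 10.4 CPM with chloroquine, 12.3, 4.11 and 2.89 CPM with ADI-PEG20 and 4.51, 1.73 and 4.43 CPM with both drugs. Its r with Meg3 was 0.95 (rho = 0.93, 0.93 for deviations, 0.91 without the 2 farthest libraries), the fourth highest of all genes. Whether reads were counted by strand is not given, so the reads of Rtl1 cannot be assigned to its own strand or its paternal copy. Mirg, a maternal microRNA host, had r = 0.92 with Meg3, and B830012L14Rik, a further transcript of the domain, had 0.82. At the edges of the domain r with Meg3 over the 12 values was lower: 0.54 for Dlk1, 0.58 for Dio3, which encodes a thyroid hormone deiodinase, and 0.29 for Begain. For deviations from group means r with Meg3 was 0.60 for Dlk1, 0.58 for Dio3 and 0.63 for Begain. By that measure Mirg was at 0.92 and B830012L14Rik at 0.56, so the edges were not set apart from B830012L14Rik. These genes rested on few reads per library: 25 to 70 for Dlk1, 14 to 135 for Dio3, 44 to 102 for Begain and 10 to 68 for B830012L14Rik. Mirg had 47 to 209, Rtl1 40 to 288 and Meg3 533 to 2542. The part of depth in the lower r was not tested. The log2 differences of both drugs from chloroquine were -1.71 (SE 0.55) for Rtl1, -1.93 (SE 0.48) for B830012L14Rik and -1.08 (SE 0.50) for Mirg. They were -0.97 (SE 0.88) for Dio3 and 0.22 (SE 0.47) for Begain. None of these passed after adjustment in limma (adjusted p = 0.55, 0.50, 0.74, 0.88 and 0.95).

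**Figure D4:**
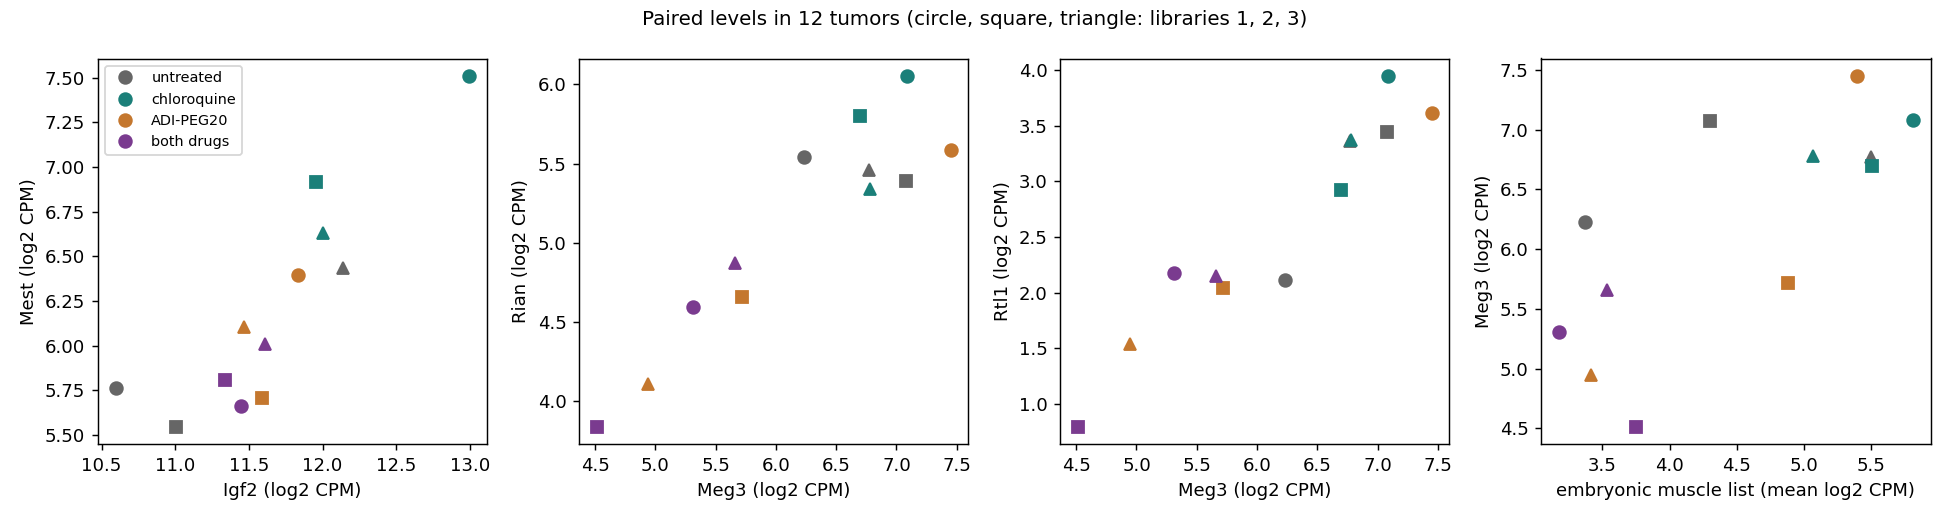
Paired levels in the 12 tumors (log2 CPM on both axes, colour for treatment group, shape for library number): Mest against Igf2, Rian against Meg3, Rtl1 against Meg3, and Meg3 against the mean of the embryonic muscle list. Chloroquine library 1 is highest in both Mest and Igf2 (182 and 8175 CPM). The libraries with both drugs lie at the low end of both Meg3 panels for Rian and Rtl1. ADI-PEG20 library 3 lies among them (Meg3 30.8, Rian 17.3 and Rtl1 2.89 CPM). For Rtl1 so do ADI-PEG20 library 2 (4.11 CPM) and untreated library 1 (4.34 CPM).

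Some members overlap other annotated genes, and whether reads were counted by strand is not given in the sources used here. Mest shares 912 bases with Copg2 on the opposite strand. Copg2 had r = 0.19 with Mest and differed by 0.10 (SE 0.23) between chloroquine and untreated tumors on the log2 scale. Igf2 shares 7124 bases with the antisense gene Igf2os, which averaged 22.7 CPM untreated and 51.9 CPM with chloroquine, far below Igf2 itself. It also shares 16048 bases on the same strand with the protein-coding gene Gm49394, which was not among the genes measured. Rian shares 2011 bases with Gm26945 on the same strand.

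The nearest measured neighbours outside the domain varied in how far they followed the members. Next to Mest, Cep41 (29.8 kb away) had r = 0.44 and Klf14, an imprinted transcription factor gene 208 kb away, had r = 0.63, with 0.12 for deviations. Klf14 rested on few reads, 8 to 79 per library, the most in chloroquine library 2. Sf3b5 beside Plagl1 had r = 0.64 and Ltv1 on its other side 0.05. The neighbours of Cdkn1c (Kcnq1, 0.09, and Nap1l4, -0.17) and Grb10 (Ddc, -0.12, and Cobl, 0.03) did not follow them. Met, which lies on the chromosome of Mest at a distance of 13150 kb, had r = -0.50 with Mest and -0.74 for deviations. Without the 2 libraries farthest from the median of Met, r was -0.31. Met measured 2709, 3617 and 358 CPM untreated and 188, 862 and 906 CPM with chloroquine. With ADI-PEG20 it measured 100, 1297 and 1164 CPM and with both drugs 244, 2505 and 277 CPM.

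The levels of muscle marker genes differed between the same groups. The skeletal muscle list, with 13 of 14 genes in the table, summed to 3059 to 4123 CPM with chloroquine and 628 to 952 CPM with both drugs. It summed to 779 to 6340 CPM untreated and 413 to 8362 CPM with ADI-PEG20. The embryonic muscle and progenitor list, with 10 of 12 genes, summed to 844 to 1600 CPM with chloroquine, 425 to 575 CPM with both drugs, 902 to 1126 CPM untreated and 304 to 1104 CPM with ADI-PEG20. No marker of either list was at 0 reads in any library. Over 12 libraries, r with the mean of the embryonic muscle list was 0.76 for Igf2, 0.75 for Mest, 0.74 for Meg3 and 0.68 for Rian. For deviations from group means these were 0.74, 0.54, 0.60 and 0.46. With the skeletal muscle list r over 12 libraries was 0.74 for H19, 0.69 for Rian, 0.66 for Meg3, 0.48 for Mest and 0.23 for Igf2. In the same order, deviations gave 0.71, 0.58, 0.46, 0.43 and 0.11. Without the 2 libraries farthest from the median of the skeletal muscle list, r was 0.78, 0.71, 0.67, 0.83 and 0.82. The part of muscle content in the differences of the imprinted genes was not tested.

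Other cell types gave further values. The fibroblast list, with 8 of 8 genes, summed to 27148 to 49684 CPM with chloroquine and 16267 to 22916 CPM with both drugs. It summed to 20129 to 34564 CPM untreated and 15694 to 53794 CPM with ADI-PEG20, which held its lowest and its highest library. Its r was 0.78 with H19, 0.77 with Dlk1, 0.66 with Igf2 and 0.65 with Mest. For the others r was 0.55 with Plagl1, 0.51 with Cdkn1c, 0.48 with Meg3, 0.46 with Rian, 0.26 with Grb10 and -0.05 with Peg3. The macrophage list, with 7 of 7 genes, summed to 760 to 964 CPM untreated and 828 to 1132 CPM with chloroquine. It summed to 1088 to 1556 CPM with ADI-PEG20 alone and 1248 to 1647 CPM with both drugs, so these last groups overlapped and both lay above untreated. The macrophage list had r = -0.79 with Peg3. The adipocyte list, with 8 of 10 genes, summed to 357 CPM in ADI-PEG20 library 1, against 31.7 to 143 CPM in the other 11. No marker of these 3 lists was at 0 reads in any library, and their part in the results was not tested.

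The genes whose pattern over 12 libraries was most like each member were found by Pearson r among all genes outside the list. For Meg3 they were Tmod1, which caps actin filaments (0.97), Gm26507 (0.96) and Mir1943 (0.96). For Rian they were Hhipl1 (0.97), Pdlim7 (0.96) and the fibrillin gene Fbn2 (0.96), and Hhipl1 also led for deviations (0.98). Peg3 was closest to Chrna1, a subunit of the muscle acetylcholine receptor that is also in the embryonic muscle list (0.96). H19 was closest to Galnt17 (0.94), Mtss1l (0.93) and Ablim1 (0.92), and Mest to the Hox-cluster noncoding RNA Hotairm1 (0.90), Galnt17 (0.88) and Vash2 (0.87). Galnt17 was thus in the top 3 of both. Among the genes close to Igf2 were Rtn4r and Nr3c2, the mineralocorticoid receptor (0.91 each). Plagl1 was closest to the mitotic regulator Foxm1 (0.93), Cdkn1c to Cant1 (0.91), Grb10 to Gm12607 (0.96) and Dlk1 to Selenon (0.88).

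Of 59 other imprinted genes listed, 42 were in the table, and none passed in any of the 6 comparisons. Between chloroquine and untreated tumors 24 were higher and 18 lower, with a median of 0.08. Between both drugs and chloroquine 17 were higher and 25 lower, with a median of -0.07. In 8 of the 42 the libraries with both drugs all lay below those with chloroquine, against 9.57% of all genes. In 2 they all lay above, a pattern whose share of all genes is not given here. The 8 include Rtl1, Mirg and B830012L14Rik of the chromosome 12 domain described above, and Klf14, which rested on few reads. Sgce, the paternal gene for epsilon-sarcoglycan, averaged 21.4 ± 8.53 CPM untreated, 30.9 ± 7.29 with chloroquine, 30.6 ± 2.08 with ADI-PEG20 and 41.9 ± 3.36 with both drugs (SD, n = 3). Its libraries with both drugs all lay above the untreated ones, with a log2 difference of 1.04 (SE 0.24, limma adjusted p = 0.31). Peg10, its neighbour on chromosome 6, differed by 0.76 (SE 0.26) in the same comparison, B830012L14Rik by -1.62 (SE 0.48) and Osbpl5 by -0.43 (SE 0.17). Phactr2 differed by 0.77 (SE 0.26) between ADI-PEG20 and untreated tumors.

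The IGF and insulin signalling list had 20 of 20 genes in the table, and none passed in any of the 6 comparisons. Between chloroquine and untreated tumors 12 were higher and 8 lower, with a median of 0.05, and between both drugs and chloroquine 9 were higher and 11 lower, with a median of -0.02. The binding protein genes Igfbp4 and Igfbp3, named by their small unadjusted p, went opposite ways with ADI-PEG20. Against untreated tumors Igfbp4 differed by 0.86 (SE 0.27) and Igfbp3 by -0.86 (SE 0.30) on the log2 scale, with a limma adjusted p of 0.52 for each. Their directions were the same with chloroquine (0.43 and -0.67) and with both drugs (0.46 and -0.76). Foxo1, a transcription factor held back by insulin signalling, differed by 0.81 (SE 0.27) between ADI-PEG20 and untreated tumors. Igf2bp1, which encodes an RNA-binding protein of the Igf2 transcript, differed by 2.52 (SE 0.96) between both drugs and untreated tumors. Untreated library 1 of Igf2bp1 was at 0.539 CPM, against 14.5 to 38.5 CPM in the other 11 libraries. Igf2bp2, of the same protein family, differed by -1.24 (SE 0.52) between chloroquine and untreated tumors.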

How the data were processed

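RNA was measured in 12 tumors, 4 groups of 3 libraries. The authors deposited a merged table of log2 CPM per gene and library, with 16335 genes after 51 repeated lines were dropped. The submitters' processing notes list the tools limma, edgeR, STAR (2.5.1a), Salmon (0.8.2), bcl2fastq, featureCounts (1.4.6-p5) and Subread, and the build mm10, with no roles. The deposited values equal log2 of the reads plus 0.5 over an effective library size, and 100% of values below 2000 reads came out whole within 0.02 reads. The lowest gene total was 85 reads, so low genes had already been left out of the table. All 10 imprinted genes were in it.

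Differences came from 1 limma fit (limma 3.58.1, R 4.3.3, trend in expression) of the deposited log2 CPM over 12 libraries, two-sided, with Benjamini-Hochberg adjustment over 16335 genes and a threshold of 0.05. Correlations carry no p. The 10 genes, the gene lists and the tests were chosen with earlier results of these data known. From the imprinted and IGF lists, up to 5 genes each with the smallest unadjusted p against untreated tumors were named; for each of the 10, up to 3 genes of highest r, and the nearest measured gene on each side, plus Met for Mest. One gene that this rule takes is not reported here. Positions came from GENCODE M21 (GRCm38), sequences from RefSeq. The alternatives were a replicate block, voom, library weights, other scalings, a prior of 2 reads, a filter at a mean log2 CPM of 1, the contrast's groups alone and each library left out.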

Additional observations from a re-analysis of the deposited data

How the results depend on the processing

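In the 6 comparisons, 0 of 16335 genes passed in limma with all 12 libraries (555, 1357, 1413, 559, 1107 and 696 had an unadjusted p under 0.05, in the order chloroquine, ADI-PEG20 and both drugs against untreated, both drugs against ADI-PEG20, both drugs against chloroquine, and interaction), and 0 with voom weights (564, 1330, 1467, 441, 1169 and 683). For both drugs against untreated tumors the replicate block gave 8 genes, and leaving out ADI-PEG20 library 1 with untreated library 2, chosen after seeing the data, gave 17. For both drugs against chloroquine, library quality weights gave 15, that pair left out 22, and the 2 groups alone 72, among them Meg3. Leaving out 1 library at a time gave 0 to 1 genes: 1 for ADI-PEG20 against untreated without untreated library 3, and 1 for both drugs against chloroquine without ADI-PEG20 library 3. The causes were not tested. The replicate numbers were not treated as pairs, because the labels do not say that they pair the tumors. Of 18 same-numbered pairs of libraries, 9 had deviations correlated above 0.1 (r from -0.05 to 0.20). As a hint from the data alone, 10 of 12 libraries correlated best with their own number.

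Of 1244 differences of the 10 genes recomputed under the alternatives, 1240 moved by less than the SD within groups. The other 4 arose without ADI-PEG20 library 1 and untreated library 2: H19 at -1.41 and Plagl1 at -3.43 for ADI-PEG20 against untreated, and -0.71 and 0.85 for the interaction. That SD ran from 0.30 for Grb10 to 1.80 for Plagl1. Many of the 1244 could not move. The replicate block, the filter and the contrast's groups alone leave a difference unchanged by construction. So does leaving out a library that the comparison does not use. The count of 1240 is therefore no measure of stability. With each library left out in turn, chloroquine minus untreated ran from 0.86 to 1.36 for Mest, 0.62 to 1.94 for H19 and 0.73 to 1.52 for Igf2. Both drugs minus chloroquine ran from -1.39 to -0.95 for Mest, -2.77 to -1.47 for H19, -1.04 to -0.52 for Igf2, -1.94 to -1.37 for Meg3 and -1.51 to -0.99 for Rian. Total reads as library size moved the median of all genes by 0.11 to 0.17 on the log2 scale in the 4 comparisons that hold both drugs. The interaction has no fit with its groups alone, since it uses all 4. Plagl1, Cdkn1c and Dlk1 are limited by depth.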

Other observations

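Among the IGF and insulin signalling genes, Igf2bp2, which encodes an RNA-binding protein of the Igf2 transcript, ran opposite to 3 of the imprinted genes. Over 12 libraries its r was -0.87 with Mest (rho = -0.76, -0.82 for deviations from group means, -0.76 without the 2 libraries farthest from the median). It was -0.86 with Igf2 (rho = -0.88) and -0.81 with H19 (rho = -0.89). Of all genes, 2 had a lower r with Mest. Igf2bp2 averaged 66.5 ± 32.2 CPM untreated, 31.3 ± 18.5 with chloroquine, 50.7 ± 16.8 with ADI-PEG20 and 69.1 ± 28.4 with both drugs (SD, n = 3). These pairs were looked at after the values were seen.

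Nctc1, a noncoding RNA gene that lies 16.9 kb from H19 at the muscle enhancers of the Igf2 and H19 region, did not follow them. It gave 138, 13 and 18 reads untreated, 4, 13 and 18 with chloroquine, 105, 23 and 5 with ADI-PEG20 and 6, 7 and 1 with both drugs. Untreated library 1 and ADI-PEG20 library 1 held most of its reads, and the skeletal muscle list was also highest in these 2 libraries (6340 and 8362 CPM). Nctc1 had r = 0.24 with H19 and -0.25 with Igf2.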
